A study of Mus musculus with 6 samples.

Results

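Foxc2, Nfatc1, Itga9, Piezo1, Gja4, Gja1, Celsr1, Vangl2 and Fat4 are genes known for the building and upkeep of lymphatic valves and for the sensing of flow. These 9 genes were taken by symbol from a table of 18482 genes, and all 9 were found and had enough reads to be tested. The table covers mouse ear skin at postnatal day 21. The lecko group (labelled Vegfr2lecko) consisted of 3 tamoxifen-treated mice in which Kdr, the gene of VEGFR2, was deleted in lymphatic endothelium, and the control group of 3 tamoxifen-treated littermates. The labels used here name neither the Cre driver nor which of the series' tamoxifen schedules these mice received. They also do not tie libraries to litters, so litter could not enter the test. The p-values set the group difference against the spread within the groups of these 6 samples only. Each library was made from polyadenylated RNA of whole ear skin, so fewer cells of a type and less RNA per cell cannot be told apart.

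Lymphatic valves are paired leaflets that keep lymph moving in a single direction. As background, valve cells form where lymph flow is disturbed: the transcription factors FOXC2 and NFATC1 act there with PROX1 and GATA2, connexins couple the cells, planar polarity proteins turn them across the vessel, and integrin α9β1 binds the matrix core of the leaflet. PIEZO1 is an ion channel opened by membrane tension, and it has been tied to valve formation in mice. None of these genes is particular to lymphatic vessels. In skin, connexin 43, CELSR1 and VANGL2 are also known from the epidermis, NFATC1 from hair follicle stem cells and connexin 37 from arterial endothelium.

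Library totals ran from 17242921 to 17825135 estimated counts. Kdr stood at 9.76, 11.2 and 10.2 CPM (counts scaled to library size, with TMM factors) in lecko skin, against 32.6, 31.3 and 38.5 CPM in control skin. Its log2 difference, lecko minus control, was -1.72 (SE 0.10), with an adjusted p of 0.00026 by edgeR's quasi-likelihood test. A level in whole skin does not tell which cells the Kdr difference came from. The median log2 difference was -0.10 for the lymphatic endothelial markers and -0.27 for the blood and pan-endothelial markers given further on. The part of each endothelium in the Kdr difference was not tested. The summed level of 8 lymphatic endothelial markers was 452 to 506 CPM in lecko skin and 504 to 568 CPM in control skin, with all 8 detected in the tissue. Of the 8 markers 5 were lower and 3 higher, with Prox1 at 0.18, Pdpn at 0.20 and Reln at -0.27 on the log2 scale. Most of the lower sum came from Ccl21a, at 96.0 CPM in lecko skin and 144 CPM in control skin. The estimated counts of Ccl21a were not whole numbers. Ccl21a and Reln were lower in every lecko library than in any control, as were 7.23% of all genes tested, and 0 of the 8 were higher in every one. The libraries also differed in Y-linked expression: the sum of 4 Y-linked genes, here CPM scaled to library size without TMM factors, was 0.224 to 1.19 in the lecko libraries and 1.03 in control 1, but 242 in control 2 and 265 in control 3. Control 1 was therefore the sole control whose Y-linked level was like that of the lecko libraries, and values against it are given where they bear on a result.

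No valve or flow-sensing gene passed the test. With edgeR's quasi-likelihood test, adjusted by Benjamini-Hochberg over 14856 genes, 0 of the 9 had an adjusted p under 0.05, where 3 genes in all (0.0202%) did. DESeq2 and limma-voom also called 0 of the 9. At an unadjusted p under 0.05 there were 3 of the 9 with all 6 libraries, against 8.56% of all genes tested (4.89% higher and 3.68% lower). These were Fat4 and Itga9, which were higher in lecko skin, and Gja4, which was lower. The same 3 genes had groups that did not overlap, where this held for 14.6% of all genes tested (7.37% higher and 7.23% lower). The median log2 difference of the 9 genes was -0.01, beside 0.01 over all genes tested, with 4 positive and 5 negative.

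**Figure D1:**
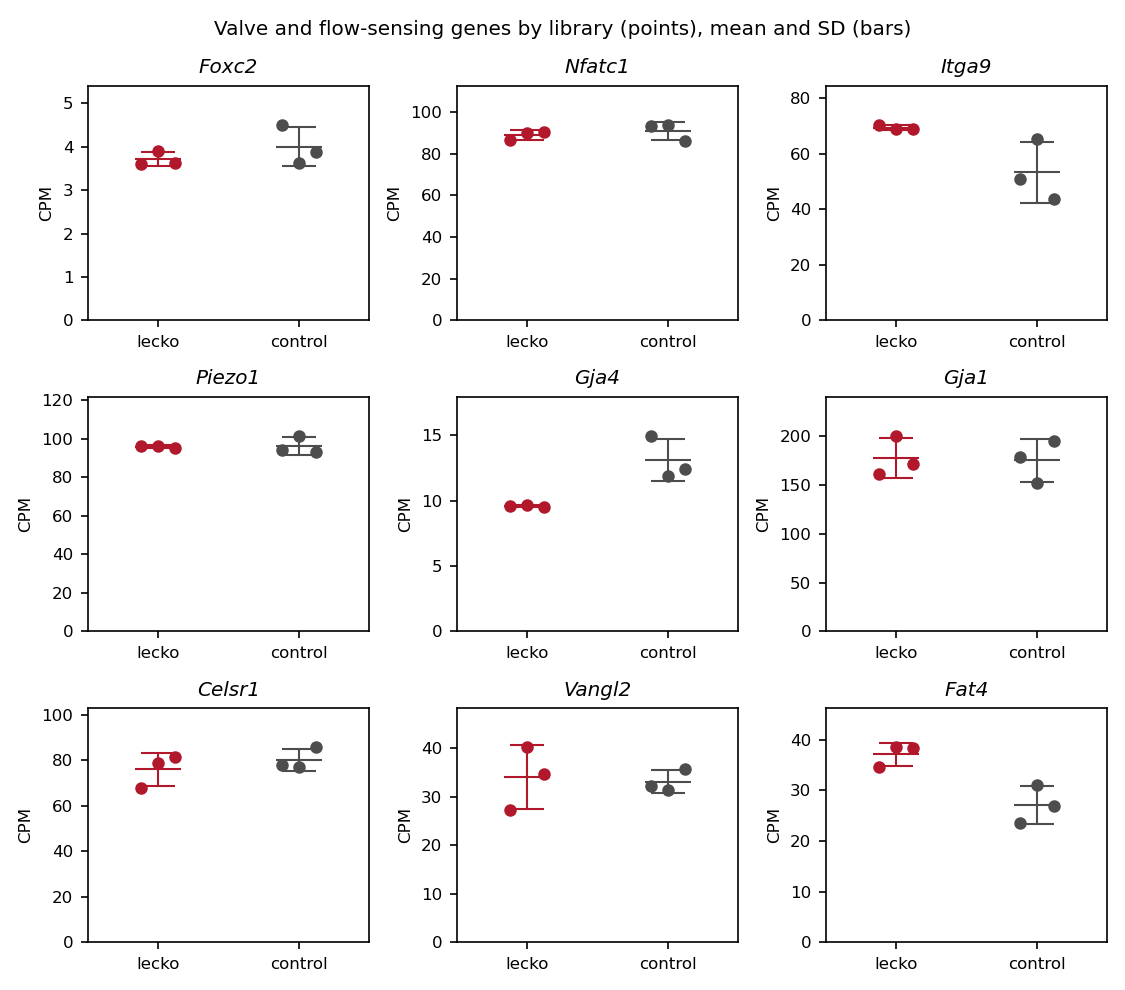
CPM (vertical axis, from 0) of each of the 9 genes in the 3 lecko libraries (red, left) and the 3 control libraries (grey, right). Points are libraries in replicate order, and bars are the mean ± SD of 3 libraries. Itga9 and Fat4 were higher in every lecko library than in any control, Gja4 was lower in every lecko library, and the other 6 genes overlapped between the groups.

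Foxc2, the forkhead transcription factor without which valves do not form in mice, was the least abundant of the 9 in CPM. It was at 3.61, 3.90 and 3.63 CPM in lecko skin, against 4.50, 3.62 and 3.88 CPM in control skin. The lecko values lay within the range of the controls apart from lecko 1, which was just below control 2. Its log2 difference was -0.11 (SE 0.16), with a 95% interval of -0.46 to 0.24 and an adjusted p of 0.862 by edgeR. Each library held only 63 to 78 Foxc2 reads, and the interval allows a level as low as 0.728 times that of control skin. Foxc2 lies on chromosome 8 from 121116171 to 121118895 (GRCm38.p6, as for all coordinates here).

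Nfatc1, which encodes a transcription factor that calcineurin releases to the nucleus, was at 86.4, 90.1 and 90.5 CPM in lecko skin, against 93.2, 93.7 and 86.1 CPM in control skin. The groups overlapped, and control 3 was the lowest library of all 6. The log2 difference was -0.03 (SE 0.06), with an interval of 0.895 to 1.07 times the control level and an adjusted p of 0.890 by edgeR. Nfatc1 is annotated on chromosome 18 from 80606205 to 80713071.

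Itga9 encodes the α9 chain of integrin α9β1, whose ligands include fibronectin, tenascin-C and SVEP1. It was at 70.4, 68.9 and 69.1 CPM in lecko skin, against 50.8, 65.4 and 43.7 CPM in control skin. The lecko libraries were close to each other, with a coefficient of variation of 1.15%, while the controls varied by 20.8% and control 2 came within a few CPM of the lecko libraries. Itga9 averaged 69.5 ± 0.798 CPM in lecko skin and 53.3 ± 11.1 CPM in control skin (SD, n = 3 each). The log2 difference was 0.38 (SE 0.13), a level 30.3% higher with a 95% interval of 1.05 to 1.62 times that of control skin, unadjusted p = 0.0229 and adjusted p = 0.530 by edgeR. Without control 2 the log2 difference was 0.55 and passed the threshold (adjusted p = 0.0419 by edgeR), in a fit that called 37 genes in all. With every other library left out in turn it did not pass. Itga9 lies on chromosome 9 from 118606709 to 118901003.

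Piezo1, the flow channel, had the smallest coefficient of variation of the 9 genes in both groups. It was at 96.3, 96.3 and 95.3 CPM in lecko skin, against 94.2, 101 and 93.3 CPM in control skin. All 3 lecko libraries lay inside the range of the controls. The log2 difference was -0.01 (SE 0.05), with an interval of 0.915 to 1.08 times the control level and an adjusted p of 0.985 by edgeR. Piezo1 (chromosome 8, 122481698 to 122551329) shares 2441 exonic bases with Ctu2 on the opposite strand. The strand setting of the counting is not given in the sources used here, so reads of the shared stretch cannot be told apart, and the estimate was not a whole number in 5 of the 6 libraries.

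Gja4 and Gja1 are the connexin genes among the 9. Gja4 encodes connexin 37, which valve endothelium needs in mice, and was at 9.59, 9.67 and 9.48 CPM in lecko skin, against 14.9, 11.9 and 12.4 CPM in control skin. The lecko libraries were nearly equal and all below the lowest control, which was control 2. Gja4 averaged 9.58 ± 0.0958 CPM in lecko skin and 13.1 ± 1.62 CPM in control skin (SD, n = 3 each), from 167 to 171 reads per lecko library and 207 to 259 reads per control library. The log2 difference was -0.45 (SE 0.11), a level 0.732 times that of control skin with a 95% interval of 0.612 to 0.875, unadjusted p = 0.00336 and adjusted p = 0.419 by edgeR. Gja1, which encodes connexin 43, was at 161, 200 and 172 CPM in lecko skin, against 179, 151 and 194 CPM in control skin. These ranges overlapped almost completely, with a log2 difference of 0.02 (SE 0.11), a 95% interval of -0.24 to 0.28 and an adjusted p of 0.967 by edgeR. The Gja4 and Gja1 intervals were each fitted to a single gene, and the difference between these connexins was not tested.

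The 250 bases before the start of each connexin gene are shown because these are the pair of valve connexins among the 9. RefSeq's GRCm38.p6 annotation places them at chr4:127314040-127314289 on the minus strand for Gja4 and at chr10:56377050-56377299 on the plus strand for Gja1. Capitals mark matches, on either strand, to short cores of the factors named above: GGAAA for NFAT, AGATAA for GATA and TAAACA for forkhead.
Gja4: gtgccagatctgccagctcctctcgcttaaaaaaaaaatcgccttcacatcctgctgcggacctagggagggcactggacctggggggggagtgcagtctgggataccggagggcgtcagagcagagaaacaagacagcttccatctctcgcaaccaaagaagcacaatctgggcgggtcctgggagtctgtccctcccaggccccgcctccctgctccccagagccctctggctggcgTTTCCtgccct
Gja1: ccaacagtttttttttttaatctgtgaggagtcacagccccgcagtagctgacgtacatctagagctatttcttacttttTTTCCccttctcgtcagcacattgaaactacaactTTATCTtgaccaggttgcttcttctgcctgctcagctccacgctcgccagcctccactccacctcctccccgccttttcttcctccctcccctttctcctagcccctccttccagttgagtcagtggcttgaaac
The Gja4 window held 1 NFAT core, beginning 11 bases before the start, and neither a GATA nor a forkhead core. The Gja1 window held 1 NFAT core, beginning 170 bases before the start, and 1 GATA core, beginning 135 bases before it, with no overlap between them. Among 32851 windows of this length before annotated starts, 55.6% held an NFAT core, 9.99% a GATA core and 12% a forkhead core. A match of this kind is a description of the letters and not a measured binding site.

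Of the 3 planar polarity genes among the 9, Fat4 had the log2 difference farthest from 0. FAT4 is a giant cadherin, known to bind DCHS1 on the neighbouring cell and to be required for lymphatic valve and vessel shape in mice. Fat4 was at 34.5, 38.6 and 38.4 CPM in lecko skin, against 23.5, 31.0 and 26.9 CPM in control skin. Every lecko library was above every control, and the gap between lecko 1 and control 2 was smaller than the range of the controls. Fat4 averaged 37.2 ± 2.27 CPM in lecko skin and 27.2 ± 3.74 CPM in control skin (SD, n = 3 each). The log2 difference was 0.45 (SE 0.10), a 1.37-fold level with a 95% interval of 1.16 to 1.61, unadjusted p = 0.00180 and adjusted p = 0.381 by edgeR. Fat4 (chromosome 3, 38884667 to 39011992) shares 1209 and 281 exonic bases with 2 annotated antisense genes, from which its reads cannot be told apart without strand.

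Celsr1 and Vangl2, core polarity genes that have been tied to the turning of valve cells in mice, overlapped between the groups. Celsr1 was at 67.7, 78.9 and 81.2 CPM in lecko skin, against 77.9, 76.9 and 85.8 CPM in control skin. Lecko 1 was the lowest library and control 3 the highest, with the others close together. Its log2 difference was -0.08 (SE 0.08), with an interval of 0.835 to 1.07 times the control level and an adjusted p of 0.807 by edgeR. Vangl2 was at 27.2, 40.3 and 34.7 CPM in lecko skin, against 32.2, 31.4 and 35.7 CPM in control skin. The lecko libraries held both the lowest and the highest value, and varied by 19.2% where the controls varied by 6.96%. The log2 difference of Vangl2 was 0.04 (SE 0.14), with an interval of 0.828 to 1.28 times the control level and an adjusted p of 0.947 by edgeR. Celsr1 lies on chromosome 15 from 85898758 to 86034223, Vangl2 on chromosome 1 from 172000960 to 172027318, Gja4 on chromosome 4 from 127311420 to 127314039 and Gja1 on chromosome 10 from 56377300 to 56390419.

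**Figure D2:**
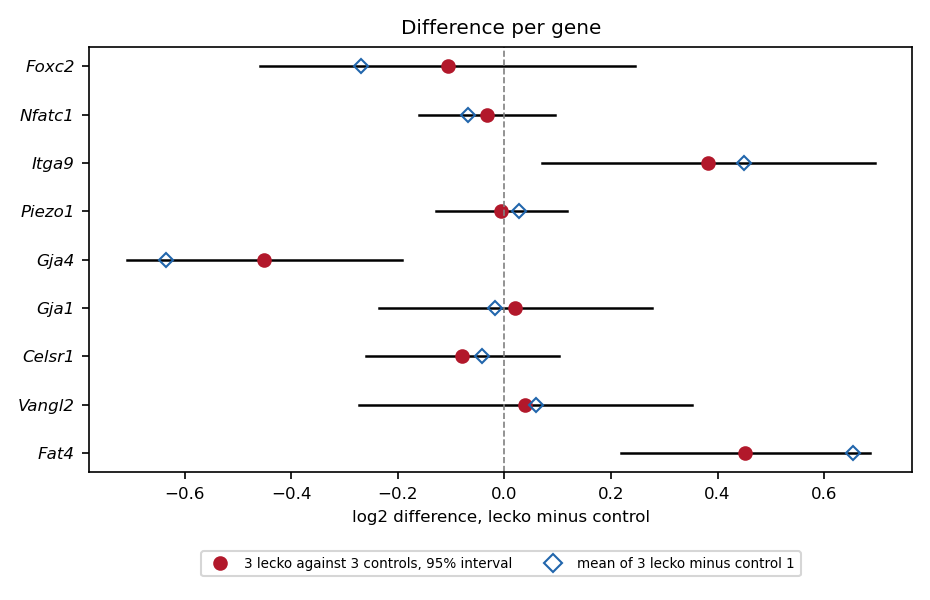
Log2 difference, lecko minus control, of each of the 9 genes (red circles) with its 95% interval from edgeR's fit over all 6 libraries (black lines, not adjusted for the number of genes). Blue diamonds give the mean of the 3 lecko libraries minus control 1, whose Y-linked level was like theirs. The intervals of Itga9, Gja4 and Fat4 leave out 0, and the diamonds of these 3 genes lie farther from 0 than their circles.

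Control 1 alone was also set against the lecko libraries for the 3 genes whose groups did not overlap. The mean log2 CPM of the lecko libraries minus that of control 1 was 0.65 for Fat4, 0.45 for Itga9 and -0.63 for Gja4. Fitted with control 1 as the only control, the log2 differences were 0.65, 0.44 and -0.65, and none was called (adjusted p = 0.461 for Fat4, 0.510 for Itga9 and 0.595 for Gja4 by edgeR). Here the lone control was assumed to vary like the lecko libraries.

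Set per kilobase of coding sequence, so that genes can be compared, Gja1 had the highest level. It gave 155 ± 17.6 CPM per kilobase in lecko skin and 153 ± 19.1 in control skin (SD, n = 3 each). Nfatc1 followed at 31.6 ± 0.803 in lecko skin and 32.3 ± 1.52 in control skin. Itga9 and Vangl2 came next, at 22.3 ± 0.257 and 20.2 ± 3.89 CPM per kilobase in lecko skin and at 17.1 ± 3.56 and 19.7 ± 1.37 in control skin, and did not differ from each other beyond their spread. Piezo1 was at 12.6 ± 0.0790 CPM per kilobase in lecko skin and 12.6 ± 0.585 in control skin. Gja4 stood below Piezo1 in lecko skin, at 9.59 ± 0.0959 CPM per kilobase, and beside it in control skin, at 13.1 ± 1.62. Celsr1 was at 8.34 ± 0.792 CPM per kilobase in lecko skin and 8.81 ± 0.532 in control skin. Foxc2 and Fat4 were the lowest: in lecko skin they stood at 2.51 ± 0.109 and 2.49 ± 0.152 CPM per kilobase, within their spread of each other, and in control skin at 2.70 ± 0.303 and 1.82 ± 0.250. The order depended on the length used. With summed exon length in place of coding length, Gja1 stood at 17.3 CPM per kilobase in lecko skin and 17.04 in control skin, nearer to Nfatc1 at 11.9 and 12.2. Itga9 then ranked below Piezo1 in both groups, at 9.03 against 9.66 CPM per kilobase in lecko skin and at 6.93 against 9.70 in control skin, and in control skin also below Gja4 (7.77) and Celsr1 (7.29). Vangl2 ranked below Piezo1, Celsr1 and Gja4 in both groups, at 4.87 CPM per kilobase in lecko skin and 4.74 in control skin. Foxc2 was then below Fat4, at 1.36 against 2.16 CPM per kilobase in lecko skin and at 1.47 against 1.58 in control skin.

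Genes that share a pathway with the 9 were read from 6 lists, and no gene in them had an adjusted p under 0.05. At an unadjusted p under 0.05, against 8.56% over all genes tested, the transcription and calcineurin-NFAT list had 0 of 17 genes, with a median log2 difference of -0.0047. The matrix and integrin list had 2 genes higher and 2 lower among 12, with a median of 0.21. Flow and mechanical sensing had 1 gene higher and 5 lower among 17, with a median of -0.04. The remaining connexins had 0 higher and 1 lower among the 12 tested, with a median of -0.09. Planar polarity had 1 higher and 2 lower among 25, with a median of 0.0031, and valve signalling 1 higher and 1 lower among 19, with a median of -0.05.

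**Figure D3:**
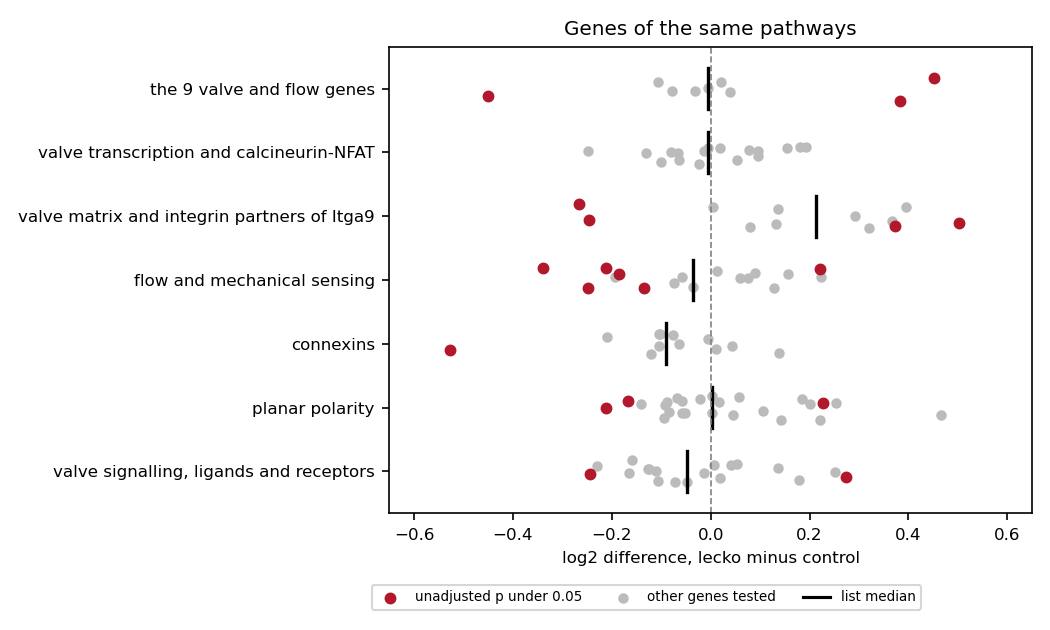
Log2 difference, lecko minus control, of the 9 genes and of 6 lists of genes from the same pathways. Points are genes tested, red where the unadjusted p was under 0.05, and black lines are list medians. The medians lie between -0.09 and 0.21, and the matrix and integrin list has the highest.

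In the matrix and integrin list, Svep1, an extracellular ligand of integrin α9β1, had a log2 difference of 0.50 (adjusted p = 0.487 by edgeR). It averaged 108 ± 1.37 CPM in lecko skin and 76.3 ± 16.2 CPM in control skin (SD, n = 3 each). Lama5, a laminin chain of basement membranes, had a log2 difference of -0.25 (adjusted p = 0.486 by edgeR), at 94.0 CPM in lecko skin and 112 CPM in control skin. Itgb1, the β1 partner chain of Itga9, had a log2 difference of 0.14, and Fn1, which encodes fibronectin, 0.32. Dchs1, the ligand of Fat4, had a log2 difference of 0.11. Itgb1, Fn1, Dchs1, Prox1, Gata2 and Klf2 were named after their values were seen, for their known ties to the 9 genes.

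Among transcription regulators, Tbx1 had a log2 difference of -0.25 and Nfatc3 of 0.10. Prox1, Gata2 and the flow-induced Klf2 were at 0.18, -0.06 and 0.19. Nfat5, Nfatc3 and Nfatc2 were the most abundant further NFAT genes, at 288, 101 and 50.6 CPM in lecko skin and 284, 94.2 and 45.4 CPM in control skin. For Klf2 the SE was 0.31, so that its difference was poorly measured.

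Among flow and mechanical sensing genes, Cdh5, the cadherin of endothelial junctions, had a log2 difference of -0.25 and S1pr1, a receptor for sphingosine 1-phosphate, of -0.21. Both are expressed by endothelium in general. Among connexins, Gjd3 had a log2 difference of -0.53 (2.38 CPM in lecko skin and 3.43 CPM in control skin) and Gja5, which encodes the arterial connexin 40, of -0.21.

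Among planar polarity genes, Prickle3 had a log2 difference of -0.21 and the ligand gene Wnt5a of 0.23. The most abundant ones were Fat1, Ryk and Daam1, at 180, 147 and 146 CPM in lecko skin and 151, 150 and 141 CPM in control skin. In the signalling list, Tie1, an endothelial receptor gene, had a log2 difference of -0.24 and Vegfc, which encodes the main ligand of VEGFR3, of 0.27. No gene in this paragraph had an adjusted p under 0.5 by edgeR.

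Markers of other skin cells also differed between the libraries, and the 9 genes are set against 5 of these lists further on. Of 10 blood and pan-endothelial markers, 10 were lower in lecko skin, 8 of them at an unadjusted p under 0.05 and none with an adjusted p under it. Over all genes tested, 3.68% were lower at that unadjusted threshold. The summed level of the 10 markers was 375 to 409 CPM in lecko skin and 452 to 493 CPM in control skin, and no marker of the list was at 0. Of 7 fibroblast markers, 5 were positive and 1 had an unadjusted p under 0.05. The fibroblast sum was 29357, 28134 and 26718 CPM in lecko libraries 1 to 3, against 27099, 35762 and 22221 CPM in controls 1 to 3. All 8 leukocyte and macrophage markers were positive, with sums of 882, 719 and 787 CPM in lecko libraries 1 to 3, against 598, 748 and 491 CPM in controls 1 to 3. The cartilage sums were 1139, 774 and 1016 CPM in lecko libraries 1 to 3, against 838, 953 and 702 CPM in controls 1 to 3. Among the controls, control 2 was the highest and control 3 the lowest for the fibroblast, leukocyte and cartilage sums and for Itga9, whereas Fat4 was highest in control 2 and lowest in control 1. The part of leukocytes and cartilage in the differences was not tested, and neither list is among the 5 that the 9 genes are set against. The further marker lists had median log2 differences of -0.23 for pericytes and smooth muscle, -0.30 for skeletal muscle, -0.12 for basal and 0.05 for differentiated keratinocytes, 0.86 for hair shaft and inner root sheath, 0.28 for cartilage, -0.10 for Schwann cells and -0.06 for adipocytes. All 10 skeletal muscle markers were lower in lecko skin, 6 of them at an unadjusted p under 0.05. Of 8 pericyte and smooth muscle markers, 6 were lower, 4 of them at that threshold. The hair shaft and inner root sheath median came from 5 genes tested, 0 of them at an unadjusted p under 0.05. Its sums overlapped, at 34.4, 23.8 and 48.7 CPM in lecko libraries 1 to 3 and 35.9, 9.60 and 17.7 CPM in controls 1 to 3. None of the marker genes had an adjusted p under 0.05 by edgeR.

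Each gene was set against the mean log2 CPM of a marker list in the same library, which gave 45 ratios for the 9 genes and 5 lists. Of these, 14 were higher and 4 lower in every lecko library than in any control. The share of such ratios over all genes tested was not worked out, so these counts are not a result about the 9 genes. Most of the ratios without overlap belonged to Itga9, Fat4 and Gja4, whose own levels did not overlap. Gja4 relative to blood and pan-endothelial markers was -1.72, -1.60 and -1.59 in lecko libraries 1 to 3, against -1.28, -1.58 and -1.62 in controls 1 to 3. These values overlapped, and the group means differed by -0.14 (exact permutation test, two-sided, p = 0.4, adjusted over the 45 ratios 0.514). Relative to lymphatic endothelial markers Gja4 did not overlap, at -2.39, -2.33 and -2.31 in lecko skin and -1.79, -2.22 and -2.00 in control skin, a difference of -0.34 (exact permutation p = 0.1, adjusted 0.25). An exact test of 3 against 3 libraries has 20 arrangements and cannot give a p below 0.1.

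Itga9 relative to fibroblast markers was -4.67, -4.64 and -4.60 in lecko libraries 1 to 3, against -4.91, -4.90 and -4.93 in controls 1 to 3. On this scale the controls agreed within 0.0138 (SD, n = 3), and the difference was 0.28 (exact permutation p = 0.1, adjusted 0.25). Within the list, the collagen genes had log2 differences of -0.20 to 0.0080 and the other markers of 0.21 to 0.26. The size of the 0.28 thus depends on the markers in the list, and Itga9 against either kind alone was not tested. Fat4 relative to fibroblast markers was -5.70, -5.48 and -5.45 in lecko libraries 1 to 3, against -6.02, -5.97 and -5.62 in controls 1 to 3. Control 3 lay above lecko 1, so these values overlapped, with a difference of 0.33 (exact permutation p = 0.2, adjusted 0.429). Against lymphatic endothelial markers, Fat4 and Itga9 were higher in every lecko library than in any control, by 0.56 and 0.50 on the log2 scale, and so was Piezo1, by 0.09. Against blood and pan-endothelial markers, whose own levels were lower in lecko skin, 5 genes did not overlap and were all higher: Fat4 by 0.76, Itga9 by 0.70, Gja1 by 0.32, Piezo1 by 0.29 and Nfatc1 by 0.27. The remaining ratios that did not overlap were Gja4 (lower) against fibroblast, basal keratinocyte and pericyte markers, Itga9 and Fat4 (higher) against basal keratinocyte and pericyte markers, and Piezo1 (higher) against pericyte markers. The list means themselves were lower in every lecko library than in any control for blood and pan-endothelium (4.85 to 5.00 against 5.17 to 5.27). The same held for pericytes (5.47 to 5.59 against 5.67 to 5.76) and basal keratinocytes (9.62 to 9.71 against 9.73 to 9.85). A gene with a level like that of the controls can thus come out higher against these lists. Each of the 18 ratios without overlap had the smallest p that this exact permutation test allows, 0.1 (adjusted 0.25).

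**Figure D4:**
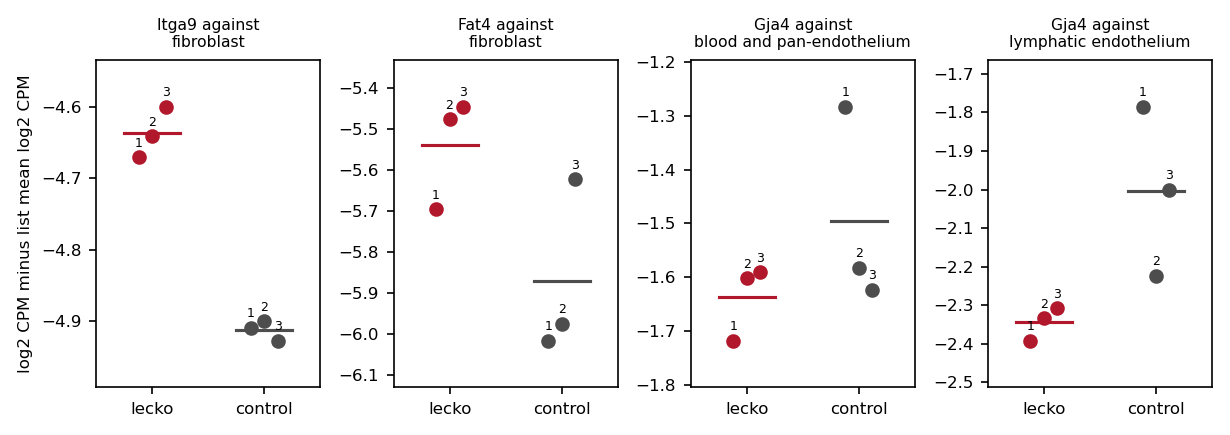
Log2 CPM of Itga9, Fat4 and Gja4 minus the mean log2 CPM of a marker list in the same library (vertical axes differ and do not start at 0), for lecko (red, left) and control libraries (grey, right). Points are libraries labelled with their replicate number, and lines are group means. Itga9 against fibroblast markers and Gja4 against lymphatic endothelial markers did not overlap, while Fat4 against fibroblast markers and Gja4 against blood and pan-endothelial markers did.

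Over 18 alternative settings, Fat4 ranged from 0.35 to 0.66 on the log2 scale, Itga9 from 0.26 to 0.55 and Gja4 from -0.65 to -0.35. These 3 genes were taken up because their groups did not overlap, which largely fixes the sign of their differences. Itga9 did not keep its unadjusted p under 0.05 in 4 of the settings, which left Fat4 and Gja4 under it. Its 95% interval was then -0.05 to 0.95 with Y-linked expression as a covariate, -0.03 to 0.76 without lecko 1, -0.03 to 0.80 without lecko 3 and -0.05 to 0.73 without control 1. The smallest adjusted p over these settings was 0.0815 for Fat4, 0.0419 for Itga9 and 0.151 for Gja4, and each came without control 2. Without control 1, whose Y-linked level was like that of the lecko libraries, the adjusted p was 0.938 for each of the 3 genes by edgeR. With Y-linked expression as a covariate the log2 differences were 0.66 for Fat4, 0.45 for Itga9 and -0.64 for Gja4. This covariate marks controls 2 and 3 only, so its group difference again sets the lecko libraries against control 1. It is not a separate adjustment for Y-linked expression.

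**Figure D5:**
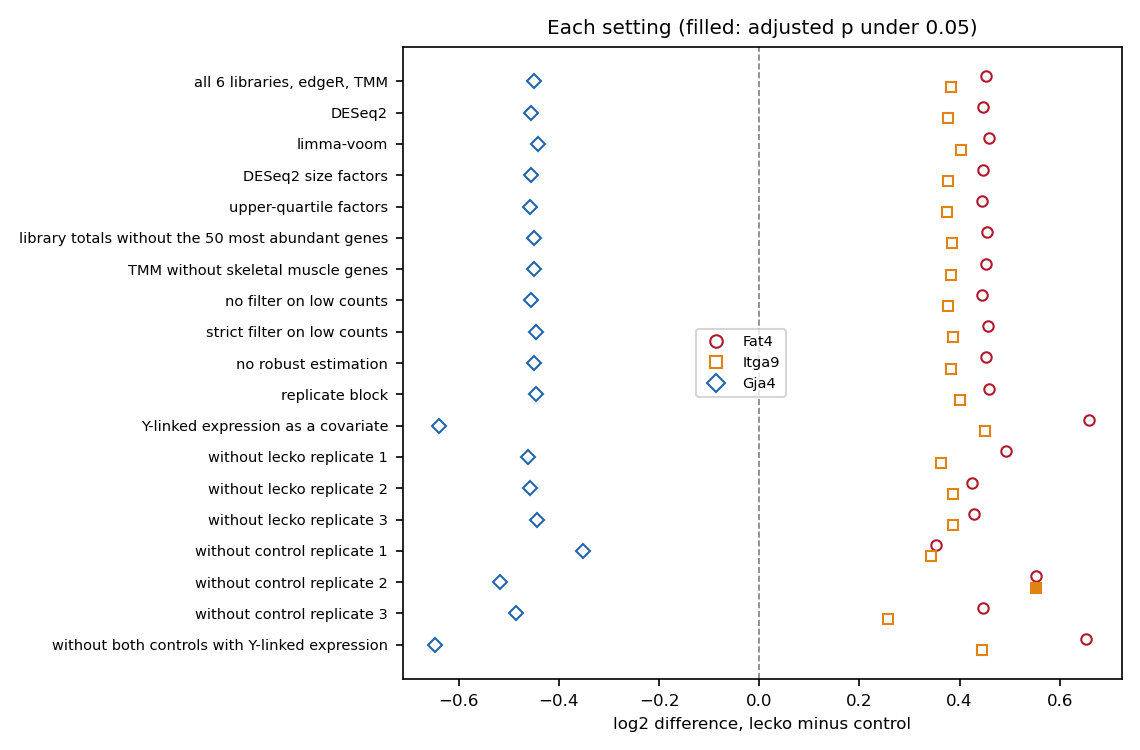
Log2 difference, lecko minus control, of Fat4 (circles), Itga9 (squares) and Gja4 (diamonds) with all 6 libraries (top row) and under 18 alternative settings. Filled symbols have an adjusted p under 0.05. Itga9 without control 2 is the single filled symbol.

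The genes whose levels over the 6 libraries were most like those of the 9 were looked for among 180 genes of the pathway and marker lists. As a description, Itga9 was most like Svep1 (Pearson r = 0.991, n = 6) and Dcn, a fibroblast proteoglycan gene (r = 0.982). Gja4 was most like the endothelial genes Esam (r = 0.911) and Nos3 (r = 0.894). Fat4 was most like Fat3 (r = 0.933) and Fat1 (r = 0.924), Celsr1 like Krt10 (r = 0.944) and Scrib (r = 0.941), and Vangl2 like Ppp3ca (r = 0.877) and Fat2 (r = 0.846). The nearest genes were Gjc1 (r = 0.941) and Col3a1 (r = 0.936) for Piezo1, Dvl3 (r = 0.949) and Orai1 (r = 0.899) for Gja1, Gata2 (r = 0.877) and Krt15 (r = 0.792) for Nfatc1, and Kcnj2 (r = 0.890) and Dvl1 (r = 0.807) for Foxc2. By rank, Piezo1 with Gjc1 and Nfatc1 with Gata2 reached a Spearman correlation of only 0.657 each. Taken over both groups, each r also takes in the difference between lecko and control skin. The 6 libraries share their tissue, and each r is among the 2 highest of 180, so no p is given.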

How the data were processed

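The authors deposited a single table of estimated counts per gene for 6 ear skin libraries, neither scaled for depth nor for length. The submitters' processing notes name the mouse build GRCm38.p6 and the tools RSEM 1.3.1, HISAT2 2.2.1 and Bowtie2 2.4.5. The sources used here give neither their roles nor the strand setting nor an annotation. Groups and replicate numbers were taken from the sample titles.

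These values were rounded before testing. The filter filterByExpr (at least 10 reads, at least 15 in total) set aside 3626 genes and TMM factors scaled the libraries. The test of lecko minus control was edgeR's (4.0.16, R 4.3.3) quasi-likelihood test, fitted robustly with group alone. P-values of 14856 genes were adjusted by Benjamini-Hochberg, and a gene was called at 0.05. For log2 CPM, 2 was added to each count. Intervals are 95% and for single genes. Coding and exon lengths and exon overlaps came from GENCODE M21 (GRCm38), and gene positions and upstream sequences from RefSeq (GRCm38.p6), which held upstream sequences for both connexin genes.

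Alternatives were DESeq2 1.42.0, limma-voom (limma 3.58.1), other scalings, other filters on low counts, a fit without robust estimation, a replicate block, Y-linked expression (over 10 CPM, without TMM factors) as a covariate, and leaving out each library. The Y-linked covariate marked controls 2 and 3, so its group term compared the lecko libraries with control 1. A fit with control 1 as the only control was added after seeing the data. The 9 genes, the lists and the alternatives were chosen with earlier results of these data known. Apart from the 9 genes and Kdr, the genes named were, from each pathway list, the called genes or the 2 with the smallest p, for NFAT and planar polarity genes also the 3 most abundant (the most abundant connexins are not reported here), and the 2 list genes most correlated with each of the 9. Itgb1, Fn1, Dchs1, Prox1, Gata2, Klf2, Pdpn, Reln and Ccl21a fall outside this rule and were named after their values were seen. Only the edgeR, DESeq2 and limma-voom fits were tested on simulated data, with changes larger than any fitted for the 9 genes. The ratios, exact tests and motif search were not tested in this way.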

Additional observations from a re-analysis of the deposited data

How the results depend on the processing

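Over 18 alternative settings, 151 of 161 results for the 9 genes kept their direction and their side of the threshold, 1 newly passed it (Itga9 without control 2) and 9 changed sign, all for genes within 0.10 of 0 on the log2 scale. With Y-linked expression as a covariate the log2 difference was 0.027 for Piezo1 and -0.012 for Gja1, and with control 1 as the only control 0.020 and -0.019. Both settings compare the lecko libraries with control 1. With each library left out in turn, Piezo1 ranged from -0.028 to 0.029, Gja1 from -0.078 to 0.10 and Vangl2 from -0.10 to 0.17. The same settings gave 0 to 1 called genes among the 9, and 3 to 37 over the whole table, with 6 without lecko 2, 8 without control 1 and 37 without control 2. DESeq2 called 32 genes, 24 higher and 8 lower, none of them among the 9. The cause was not tested. Kdr was called lower under every setting, between -1.78 and -1.62. A filter of at least 10 CPM in 3 libraries left Foxc2 out, since it lay below that level. Gja4 passed this filter only through the controls (11.9 to 14.9 CPM), as its lecko libraries lay below it (9.48 to 9.67 CPM). With the replicate number as a block 3 genes were called, Kdr among them at -1.71, and 0 of the 9. Same-numbered libraries correlated in their deviations by 0.337, -0.0723 and 0.0352, and differently numbered ones by -0.285 to 0.234. With 3 libraries per group these values cannot tell whether the numbers pair the samples. At 63 to 78 reads per library, the depth of Foxc2 limits what could be detected. Intervals rest on the spread within the groups of these 6 libraries only.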
